A study of Helianthus annuus with 142 samples.

Results

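The genes along sunflower chromosome 11 were followed through a drought experiment on leaves of Helianthus annuus, the cultivated sunflower. They are the gene models whose identifiers start with HanXRQChr11g and carry no note in the deposited count table, chosen by their measured level and their measured drought change. Level is in CPM, a gene's count scaled to 1 common library total, and a gene was kept when the average of its stress mean and its control mean was from 1 to under 1000 CPM. The log2 ratio of the stress mean to the control mean, with 0.5 CPM added to each, had to lie between -3 and 3. Of 3397 gene models on the chromosome, 1527 met these limits (45.0%), against 50.6% of the gene models on the other 16 chromosomes. None carried a note. Of the rest, 1837 averaged under 1 CPM (365 of them had no count in any library), 9 averaged 1000 CPM or more, 16 had a log2 ratio of 3 or more, and 8 had a log2 ratio of -3 or less. The genes were described in 17 windows of 10 Mb of their start position, numbered from the start of the chromosome.

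The material comprised 16 hybrids and the 8 lines whose names they combine. In the hybrid names the first part is SF009, SF092, SF109 or SF193 and the second part is SF279, SF317, SF326 or SF342, so that each of the 4 first-named parents was combined with each of the 4 second-named parents. The labels do not say which parent bore the seed. Stressed plants were harvested at a fraction of transpirable soil water of 0.1, per the labels, and control plants were held at 1. That fraction is 1 in a fully watered pot and falls towards 0 as the plant takes up the water it can reach. Each of the 24 genotypes has 3 stress libraries and 3 control libraries, each from its own plant, except SF342, which has 1 control library. The labels name the plants as the replicates, and the spread behind every p-value is that between plants. No marker of leaf cell types could be checked, because the files do not pair gene identifiers with names.

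Drought closes stomata, lowers photosynthesis and, largely through the hormone abscisic acid, changes the transcript level of a large part of the leaf genes. Crosses between inbred lines bring together different alleles, and a gene that is missing or silent in one parent can be supplied by the other. On large plant chromosomes genes and recombination are usually denser towards the ends than around the centromere. These points are background and were not measured here.

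Library totals ran from 2796719 to 13765614 counts, and the chromosome 11 genes took 2.80% to 3.88% of them. All 1527 genes passed the filter on low counts. Library identity was checked with the 200 genes of the chromosome that were off in some lines and on in others (defined below): 137 libraries resembled the group of their own label best and 5 another group. The library labelled SF092_SF317 stress 3 shared its on/off calls with SF326 at 100% and with the other libraries of its own label at 63.2%. The library labelled SF326 stress 3 shared 99.3% with SF092_SF317 and 62.1% with its own label, and the library labelled SF009_SF279 control 1 shared 90.5% with SF009_SF326 and 79.0% with its own label. The 6 libraries of line SF009 shared 86.6% to 91.5% with their own label. Over the 4312 on/off genes of the whole genome, 4 libraries resembled another group best: these 3 and the library labelled SF009 control 2. They are kept under their labels, are called the doubted libraries here, and results that move without them are given both ways.

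The genes were not spread evenly. Their density was highest in window 3, with 130 genes in 10 Mb, and in window 1, with 129, and lowest in window 6, with 51, and window 11, with 57. Their median level was 9.41 CPM, against 9.59 CPM for genes kept by the same rule elsewhere, and 790 of the 1527 were under 10 CPM. At the limits of the rule, HanXRQChr11g0337421 was kept at 1.00 CPM and HanXRQChr11g0320841 was not at 0.9995 CPM. HanXRQChr11g0334971 was kept at 901.8 CPM and HanXRQChr11g0324441 was not at 1179 CPM. HanXRQChr11g0337791 was kept at a log2 ratio of 2.80 and HanXRQChr11g0351171 was not at 3.31. HanXRQChr11g0345751 was kept at -2.91 and HanXRQChr11g0330251 was not at -3.01.

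The drought change helped choose the genes, so its values and calls are given as a description and nothing is read from the calls. Averaged over the 24 genotypes, the fitted log2 change of the chromosome 11 genes had a median of 0.03, the same as the median of all genes tested. With library totals in place of TMM scaling that median was 0.24, and that of all genes was 0.23, so changes are best read relative to it. Under edgeR's quasi-likelihood test 565 of the 1527 genes were called higher under stress (37.0%, against 31.4% of all genes tested and 36.4% of genes kept by the same rule elsewhere) and 559 lower (36.6%, against 32.6% and 37.1%). Of the genes called, 50.3% were higher, and 63.8% were with library totals. By fitted change, 215 genes were more than 2-fold lower under stress (14.1%, against 14.1% of genes kept by the same rule elsewhere). More than 2-fold higher were 115 (7.53%, against 6.74%). In whole leaves, fewer cells of a type and less RNA per cell cannot be told apart. One direction held in all 24 genotypes for 171 rising and 164 falling genes, which was not counted on other chromosomes. The share called was 73.5% among genes kept by the same rule on other chromosomes and 73.6% on chromosome 11.

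Along the chromosome the median drought change ran from -0.22 in window 2 to 0.28 in window 12. In window 2, 21 genes were called higher and 44 lower of 91, and the window median was below the chromosome median in each of the 24 genotypes. In window 12, 30 were called higher and 18 lower of 64, and 23 of 24 genotypes lay above the chromosome median. In window 5, 39 were called higher and 21 lower of 77. These splits of calls are a description and were not set beside windows elsewhere. Among 267 windows of at least 50 such genes on other chromosomes, the middle 90% of window medians lay between -0.14 and 0.20, so windows 2 and 12 fell outside that range. It leaves out windows at both ends by definition. The full range elsewhere was -0.28 to 0.29, and windows 2 and 12 lay within it. In windows of 20 Mb the medians ran from -0.05 to 0.10, and with library totals in 10 Mb windows from -0.01 to 0.50. Neighbouring genes shared little of their change. The correlation of log2 changes between adjacent genes was 0.09 over 1526 pairs on chromosome 11 and 0.07 over 27134 pairs elsewhere, and 52.7% of adjacent pairs changed in the same direction on chromosome 11. Pairs at most 5 kb apart had a correlation of 0.10 over 354 pairs. These correlations are across genes of the same libraries, which are not independent replicates.

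**Figure D1:**
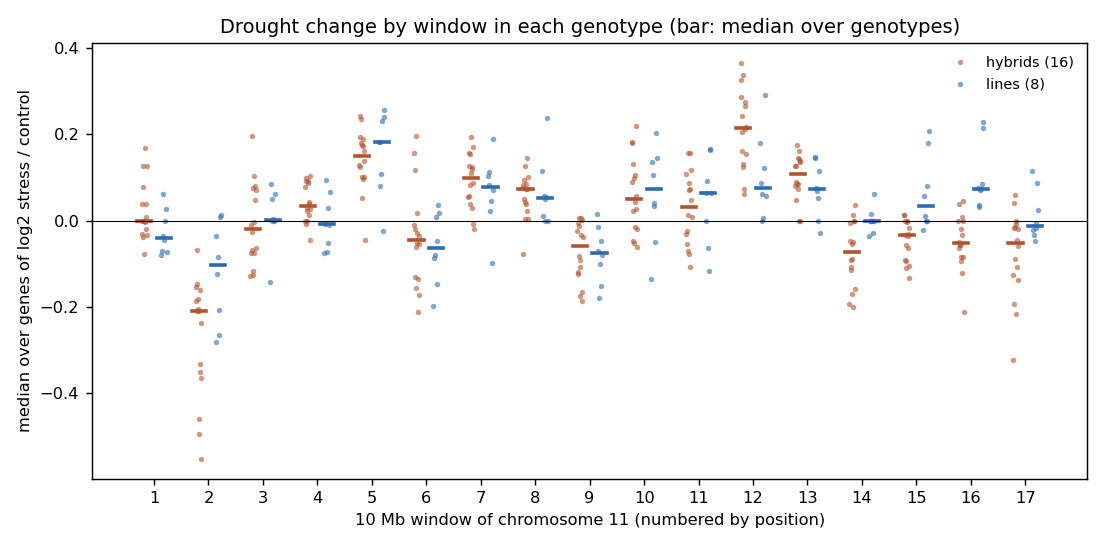
Median over genes of the fitted log2 ratio of stress to control (vertical axis) in each 10 Mb window of chromosome 11 (horizontal axis), 1 point per genotype, hybrids left of lines, bars at the median over genotypes. Points of window 2 lie lowest, between -0.55 and 0.01, and those of window 12 highest, between 0.00 and 0.36.

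The largest rise with one direction in all 24 genotypes was in HanXRQChr11g0350661 (chromosome 11, 157873080 to 157874576, plus strand). Its genotype means under stress ran from 0.124 to 13.8 CPM with a median of 1.91, against 0.00 to 1.38 CPM with a median of 0.181 under control. Its log2 change was 3.18 (SE 0.28). The next was HanXRQChr11g0349471 (153717488 to 153721032, minus strand), at 1.12 to 6.23 CPM with a median of 3.65 under stress and 0.153 to 0.779 CPM with a median of 0.444 under control, a log2 change of 2.65 (SE 0.19) with no overlap between the stress and control genotype means. Both stand in window 16. The largest falls were in HanXRQChr11g0336501 (79466187 to 79467485, plus strand) and HanXRQChr11g0324211 (16207027 to 16207779, plus strand). HanXRQChr11g0336501 had 0.00 to 1.47 CPM under stress, with a median of 0.256, and 1.22 to 7.05 CPM under control, with a median of 4.09, a log2 change of -4.08 (SE 0.21). HanXRQChr11g0324211 had 0.00 to 1.72 CPM under stress, with a median of 0.322, and 3.65 to 8.27 CPM under control, with a median of 4.99, a log2 change of -4.06 (SE 0.20). These fitted changes average the log ratios of the genotypes and so can pass the limit of -3 that the rule set on the ratio of overall means.

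The share of genes whose drought response differed between hybrids and lines was close to that of genes kept by the same rule elsewhere. The difference between the hybrids' response and the lines' response passed the test for 524 of the 1527 genes (34.3%, against 28.7% of all genes tested and 34.2% of genes kept by the same rule elsewhere), 223 with a more positive response in hybrids (14.6%, against 11.2% and 13.6%) and 301 with a more negative one (19.7%, against 17.6% and 20.6%). In 428 of the 524 the response had the same direction in both and was larger in hybrids. It was larger in lines in 10, and the directions were opposite in 86. These directions were not counted on other chromosomes, so whether this split is particular to chromosome 11 was not tested. Among genes called higher under drought the median log2 response was 0.57 in hybrids and 0.35 in lines, and among genes called lower it was -0.88 in hybrids and -0.45 in lines. These genes were called on the average over 24 genotypes, of which 16 are hybrids. Such a choice favours genes with a larger response in hybrids, so these medians are a description only. The number of genes with a fitted fall of over 2-fold ran from 216 to 355 in the hybrids, with a median of 274, and from 115 to 275 in the lines, with a median of 137.5. SF009, with 275, stood above 8 of the hybrids, and the other lines stood below all 16. Fitted rises of over 2-fold overlapped more widely, at 124 to 209 genes in the hybrids, with a median of 177.5, and 73 to 219 in the lines, with a median of 116. Line SF326, with 219 rises, stood above all 16 hybrids, SF009 above 15, and SF342, with 181, above 9. SF326 and SF009 each hold a doubted library, and SF342 has 1 control library. These counts of falls and rises were not made without the doubted libraries. Without replicate 2 of every group 312 genes were called, and without replicate 3, 347.

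The share of genes whose response differed between hybrids and lines was highest in window 3 (46.2% of 130) and window 11 (45.6% of 57) and lowest in window 6 (25.5% of 51). All lay within the range of 267 windows of at least 50 genes kept by the same rule on other chromosomes. There the share ran from 16.7% to 46.5%, with a median of 34.2%. In window 2 the median response was -0.29 in hybrids and -0.05 in lines, and 28 genes had the more negative response in hybrids against 10 with the more positive one. Windows 15 to 17 showed negative medians in hybrids and positive ones in lines: -0.06 and 0.08 in window 15, -0.11 and 0.12 in window 16, and -0.10 and 0.07 in window 17. By genotype, 12 of 16 hybrids lay below 0 in window 15, 11 in window 16 and 13 in window 17, while 5 of 8 lines lay above 0 in window 15, 8 in window 16 and 3 in window 17. Those 3 were SF009 at 0.12, SF326 at 0.09 and SF342 at 0.02, and the 5 other lines lay below 0. SF326 holds a doubted library and SF342 has 1 control library, and both had the highest line medians in windows 15 and 16. In window 16, 30 genes had the more negative response in hybrids and 7 the more positive one. In window 13 the counts leaned the other way, with 24 more positive and 14 more negative.

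HanXRQChr11g0325791 (23792761 to 23794784, plus strand) had the most positive difference. Under stress its hybrid means ran from 80.6 to 218 CPM with a median of 148, and its line means from 49.7 to 178 CPM with a median of 131. Under control the hybrids had 6.25 to 38.4 CPM with a median of 10.9, and the lines 16.9 to 133 CPM with a median of 44.1. The stress levels overlap widely, and the difference lay in the control plants, where lines were higher. Its response was larger in hybrids by 2.23 (log2, SE 0.36, edgeR adjusted p = 1.81e-06). HanXRQChr11g0322451 (8629611 to 8631507, plus strand) followed at 1.57 (SE 0.51, adjusted p = 0.0128), with 14 of 16 hybrids and 2 of 8 lines higher under stress. Without replicate 2 of every group its call was lost at 1.54 (adjusted p = 0.0925), and over the other alternatives the adjusted p ran from 0.00645 to 0.0442.

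On the negative side, HanXRQChr11g0348481 (149759458 to 149761360, minus strand) had 0.217 to 6.92 CPM in stressed hybrids, with a median of 0.813, and 2.58 to 8.97 CPM in stressed lines, with a median of 4.43. Control hybrids had 3.158 to 24.1 CPM with a median of 7.99, and control lines 3.18 to 18.7 CPM with a median of 5.39. It was lower under stress in all 24 genotypes, and the difference of the responses was -2.66 (SE 0.46, edgeR adjusted p = 6.99e-06). HanXRQChr11g0332361 (55578028 to 55615384, plus strand) had the most negative value, -3.68 (SE 1.28, adjusted p = 0.0216). Line SF009 had at most 0.108 CPM of it in any library and SF193 at most 75.3 CPM, and SF326 had a median of 0. Stressed hybrids had 0.00 to 3.02 CPM and control hybrids 1.98 to 17.8 CPM. Its call was lost, with an adjusted p of 1.00, without replicate 1 of every group (-3.40), without replicate 3 (-3.12), without the doubted libraries (-3.40) and with the libraries of the authors' filtered table (-3.46), and over the other alternatives the adjusted p ran from 8.58e-07 to 0.0382.

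Averaged over water supply, 732 genes differed between hybrids and lines (47.9%, against 41.3% of all genes tested and 48.5% of genes kept by the same rule elsewhere). Of these, 420 were higher in hybrids (27.5%, against 22.6% and 26.5%) and 312 lower (20.4%, against 18.8% and 22.1%). The differences were small, with a median log2 difference of 0.39 among the higher and -0.32 among the lower genes. Window 1 held 44 of the lower and 28 of the higher genes, and window 8 held 18 and 38. Window 15 had the lowest share, with 30.6% of 111 genes called. In windows of at least 50 genes kept by the same rule on other chromosomes, the share ran from 30.0% to 64.2%. Of 48 genes higher in hybrids by over 2-fold, 35 were off in at least 1 line and on in another. Of all 420 higher genes 74 were, and of all 312 lower genes 1 was, against 13.1% of the chromosome 11 genes. The comparison averages log levels over the lines, so a line with the gene off lowers the mean of the lines. The same line libraries chose the on/off genes, so these counts are a description only. They were not made on other chromosomes.

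HanXRQChr11g0343651 (129622018 to 129630682, minus strand) shows what such a difference is made of. Its genotype means over both water supplies ran from 0.821 to 135 CPM in hybrids, with a median of 61.5, and from 0.0677 to 122 CPM in lines, with a median of 2.83. Lines SF109, SF193 and SF342 had medians of 122, 127 and 97.7 CPM over their libraries, and the 5 other lines had medians of 0.00 to 0.930 CPM. The log2 difference was 3.38 (SE 0.28, edgeR adjusted p = 4.58e-19). HanXRQChr11g0340431 (111205700 to 111209743, minus strand) had the same form, with 0.419 to 51.1 CPM in hybrids and 0.00 to 65.5 CPM in lines, medians of 25.9 and 0.542 CPM, and a log2 difference of 3.34 (SE 0.73, adjusted p = 8.49e-05). Its level was 0.00 CPM in all 6 libraries of SF109. Without replicate 3 of every group its call was lost (4.21, adjusted p = 1.00), and over the other alternatives the adjusted p ran from 1.60e-52 to 2.63e-04.

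The genes lowest in hybrids were not off in any line. HanXRQChr11g0322451 had 0.505 to 8.09 CPM in hybrids with a median of 0.905, and 1.47 to 16.7 CPM in lines with a median of 4.1997, a log2 difference of -2.30 (SE 0.25, edgeR adjusted p = 1.90e-13). HanXRQChr11g0336901 (82793115 to 82800563, plus strand) had 1.95 to 14.3 CPM in hybrids with a median of 6.18, and 7.19 to 75.8 CPM in lines with a median of 25.9, a log2 difference of -2.18 (SE 0.22, adjusted p = 3.81e-14). It was lower under stress in all 24 genotypes. The ranges of hybrids and lines overlap for both genes.

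The 8 lines differed in 1185 genes (77.6%, against 75.8% of all genes tested and 77.4% of genes kept by the same rule elsewhere). The share was highest in window 1, at 84.5%, and lowest in window 11, at 63.2%. In windows of at least 50 genes kept by the same rule on other chromosomes, it ran from 47.0% to 93.6%. Between single pairs of lines, a median of 442 genes differed over the 28 pairs. SF092 and SF326 differed in 141 (9.23%, against 8.45% of all genes tested), and 100 of these were higher in SF092. SF279 and SF342, and likewise SF326 and SF342, differed in 327 (21.4%, against 27.0% and 22.5%), and SF009 and SF279 in 552 (36.1%, against 37.3%), the most of any pair. No gene was on in SF326 and off in SF092, and 30 were on in SF092 and off in SF326.

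Pairs of lines changed from window to window. SF279 and SF342 differed in 5.71% of the 70 genes of window 7 (exact 95% binomial interval 1.58% to 14.0%) and in 33.3% of those of window 15. SF326 and SF342 differed in 6.19% of the 97 genes of window 8 (2.30% to 12.98%), in 3.51% of the 57 of window 11 (0.428% to 12.1%), and in 30.2% of those of window 1. SF279 and SF326 differed in 11.3% of the genes of window 8 and in 45.8% of those of window 17. SF193 and SF342 were unlike in window 8, with 44.3%, and closer in windows 14 to 17, with 14.6% to 20.8%. SF193 and SF279 had the highest share of all, 47.4% of the 97 genes of window 8. These intervals cover counting error over genes, which are not independent of their neighbours.

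**Figure D2:**
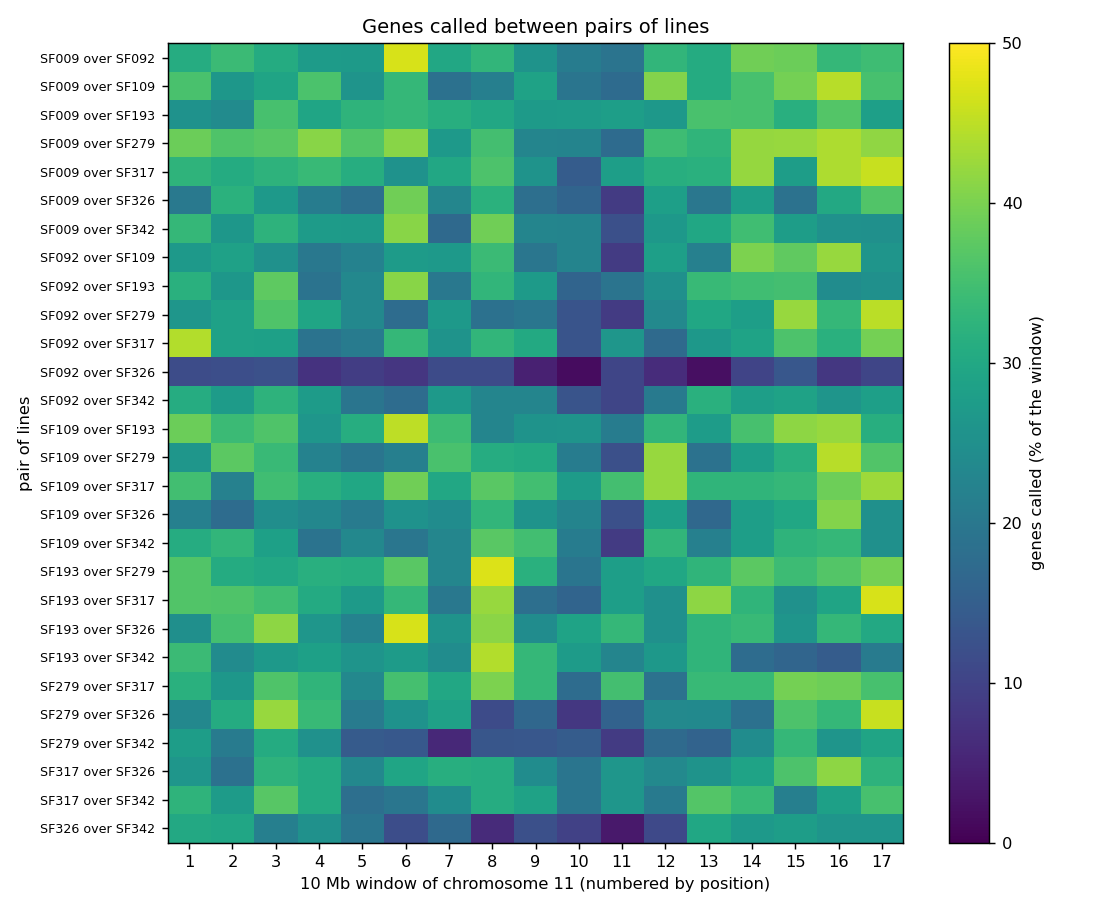
Share of genes called different (colour, percent of the window, edgeR adjusted p under 0.05) for each pair of lines (rows, the first-named line set over the second) in each 10 Mb window (columns). The row of SF092 over SF326 is dark throughout, at 13.5% or less, and the block of windows 7 to 12 is dark for SF326 over SF342, at 17.1% or less.

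The widest span among genes expressed in all 8 lines was in HanXRQChr11g0324531 (17939473 to 17940828, minus strand). It had medians over libraries of 107 CPM in SF092, 88.4 in SF109, 86.2 in SF193, 115 in SF317, 87.5 in SF326 and 26.5 in SF009, against 1.88 CPM in SF279 and 4.97 in SF342 (edgeR adjusted p = 2.69e-25). No library of SF279 or SF342 passed 7.33 CPM, and no library of the 5 highest lines was under 56.6 CPM. HanXRQChr11g0330301 (43244295 to 43248020, plus strand) had a median of 120 CPM in SF342, with a range of 66.6 to 230.2 over 4 libraries, and medians of 2.47 to 20.8 CPM in the other lines (adjusted p = 3.73e-23). The next highest library was SF193, at 44.1 CPM. No hybrid had a mean above 8.27 CPM at either water supply, the 4 hybrids with SF342 included.

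A gene was called off in a line when its median over the line's libraries was under 0.1 CPM, and on when it was 1 CPM or more. By that definition 200 genes were off in some line and on in another (13.1%, against 15.1% of genes kept by the same rule on other chromosomes). They were weaker and shorter than the rest, with a median level of 2.89 CPM against 11.6 CPM and a median length of 2754 bp against 4190 bp. Of the 200, 74 were off in a single line, 15 were on in a single line, and 59 were off in at least 4 lines. SF279 was off for 86 of the 200, SF109 85, SF326 80, SF317 73, SF342 59, SF193 55, SF092 42 and SF009 33. SF317 was the only line off for 20 of them, SF279 for 17 and SF109 for 16. With 4 libraries, the median of SF342 is less certain than that of the lines with 6.

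On/off genes were most frequent in windows 15 (24 of 111) and 16 (22 of 123) and least in windows 9 (4 of 66) and 10 (3 of 62). Their share was 21.6% in window 15 and 4.84% in window 10. Over 267 windows of at least 50 genes kept by the same rule on other chromosomes, that share ran from 2.0% to 34.9%. SF279 was off for 18 genes in window 15, 12 in window 16 and 11 in window 8. SF326 and SF342 were each off for 12 in window 8. In window 15 SF342 was off for 2 and SF317 for 2, while SF109 and SF326 were each off for 13. SF317 was off for 10 in window 14 and 9 in window 3. Patterns shared over the 8 lines were mostly short: 148 different patterns were seen among the 200 genes. Of 57 adjacent on/off genes at most 100 kb apart, 9 had the same pattern, and 2 of the pairs farther apart did. No more than 2 adjacent on/off genes shared a pattern in full, with the state between included, which happened 11 times.

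**Figure D3:**
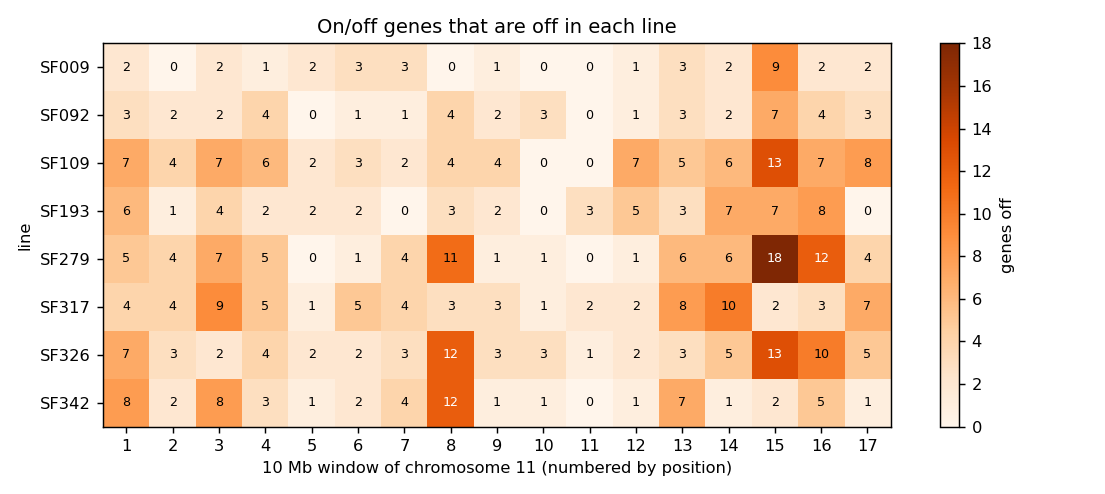
Number of on/off genes that are off (number and colour) in each of the 8 lines (rows) in each 10 Mb window of chromosome 11 (columns). SF279 reaches 18 in window 15, and SF279, SF326 and SF342 stand at 11, 12 and 12 in window 8.

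The highest-expressed gene off in 1 line was HanXRQChr11g0325691 (22986282 to 22989513, plus strand). It had 1 count in the 6 libraries of SF317 together, a highest value of 0.0973 CPM, and library values of 30.5 to 117 CPM over the 7 other lines. Hybrids with SF317 had less of it than hybrids without: 37.7, 48.5, 41.4 and 28.4 CPM under stress in the crosses with SF009, SF092, SF109 and SF193, and 52.7 to 96.6 CPM in the other 12. HanXRQChr11g0348661 (150349748 to 150353942, plus strand) had 0 counts in all 6 libraries of SF109 and library values of 20.5 to 78.9 CPM in the other lines. Its hybrids with SF109 had 32.8 to 40.4 CPM under stress and 18.6 to 31.5 CPM under control, against 45.9 to 77.9 CPM and 31.7 to 48.04 CPM in the other hybrids. The ranges of the hybrids with and without SF109 overlap at neither water supply.

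Among genes on in a single line, HanXRQChr11g0347291 (145121827 to 145146743, plus strand) had 28.3 to 43.8 CPM in SF109 and at most 0.516 CPM in any library of the other lines. HanXRQChr11g0322551 (8782599 to 8785905, plus strand) had 11.6 to 24.5 CPM in SF193 and at most 0.688 CPM elsewhere. Shared patterns between neighbours are shown by HanXRQChr11g0320711 and HanXRQChr11g0320721, which lie within 2.94 kb on the minus strand of window 1: SF193 had 0 CPM of both in all 6 libraries, and the other lines had medians of 5.41 to 13.1 CPM of the first and 1.66 to 6.03 CPM of the second. HanXRQChr11g0320731 and HanXRQChr11g0320801, the next pair, had 0 CPM in the 4 libraries of SF342 and medians of 3.00 to 4.07 and 1.39 to 2.07 CPM in the other lines.

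Among the 16 hybrids, the first-named parent affected the level of 814 genes (53.3%, against 53.8% of all genes tested and 56.3% of genes kept by the same rule elsewhere) and the second-named parent that of 758 (49.6%, against 52.4% and 56.1%). The combination of the parents, that is, a level that the sum of the parents' effects could not be fitted to, was called in 229 (15.0%, against 18.9% and 19.6%). Only chromosome 15, with 47.2% and 14.0%, had a lower share of second-named and combination effects among the 17 chromosomes. Of the 200 on/off genes, 173 had a first-named and 160 a second-named parent effect.

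Within chromosome 11, both parent effects were frequent in the last 3 windows. The first-named effect was called in 67.5% of the genes of window 16, 64.6% of window 17 and 64.0% of window 15, and in 28.1% of window 11 (16 of 57). The second-named effect was called in 68.8% of window 17, 63.6% of window 1 and 63.4% of window 16, and in 24.2% of window 10 (15 of 62). In window 12 they parted, with 59.4% for the first-named and 32.8% for the second-named parents. The combination was called in 24.2% of window 4 and in 7.58%, 6.45% and 3.51% of windows 9, 10 and 11. Other chromosomes had 267 windows of at least 50 genes kept by the same rule. There the first-named share ran from 24.6% to 85.9%, with a median of 56.9%. The second-named share ran from 23.7% to 83.3%, with a median of 56.3%. The combination share ran from 4.0% to 46.7%, with a median of 19.2%. Windows 15 to 17 thus lay within the ranges elsewhere for both parent effects, and window 11 lay below that of the combination. Over the 17 windows the shares of first-named and second-named effects had a correlation of 0.56, and gene density had a correlation of 0.65 with the first-named and 0.80 with the second-named share. These are descriptions over windows that share their libraries. In 20 Mb windows the lowest share of the first-named effect was 43.0%.

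**Figure D4:**
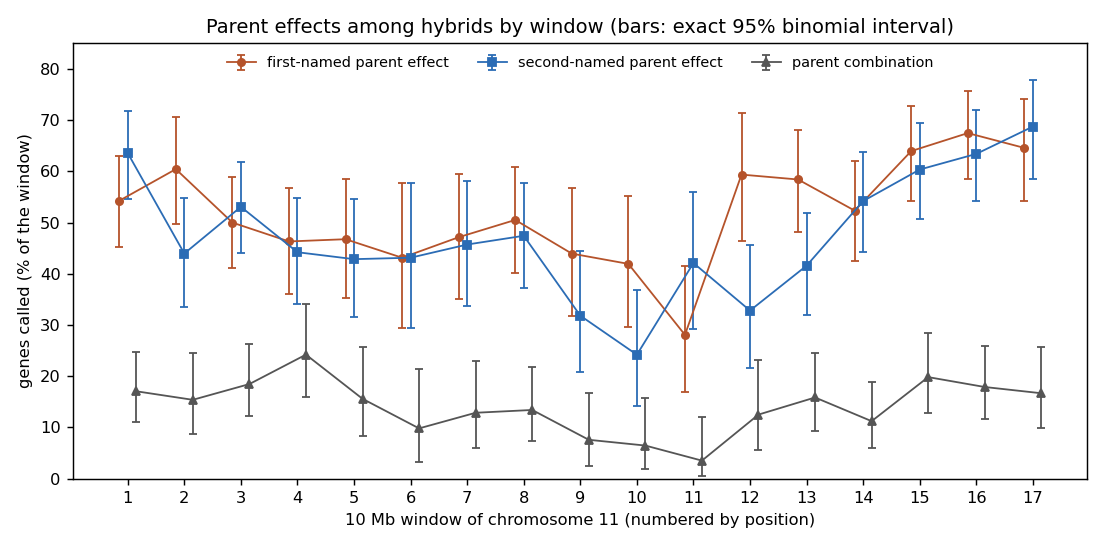
Share of genes called (vertical axis, percent of the window, with exact 95% binomial intervals over genes) for the first-named parent effect, the second-named parent effect and the parent combination among 16 hybrids, by 10 Mb window of chromosome 11 (horizontal axis). Windows 15 to 17 exceed 60% for both parent effects, and windows 9 to 11 hold the lowest shares of the combination.

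HanXRQChr11g0344461 (134178052 to 134179655, minus strand) had the widest span between first-named parents. Its hybrids with SF092 had means of 5.57 to 7.09 CPM and those with SF009 0.605 to 7.79 CPM, while those with SF109 had at most 0.0767 CPM and those with SF193 had 0 (edgeR adjusted p = 8.24e-14). The same parents had it as lines, with medians of 12.9 CPM in SF009 and 3.94 CPM in SF092 and 0 in the other 6, although 1 library labelled SF326 had 7.70 CPM. HanXRQChr11g0335571 (75273103 to 75274133, plus strand) had 3.00 to 10.9 CPM in the hybrids with SF009, SF109 and SF193 and at most 0.0536 CPM in the hybrids with SF092 (adjusted p = 4.41e-18). Its lines SF009, SF109 and SF193 had medians of 5.93, 10.4 and 3.99 CPM, and SF092 and the 4 second-named lines had medians of 0.

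For second-named parents, HanXRQChr11g0353171 (166417492 to 166420412, plus strand) had 15.9 to 31.6 CPM in the 4 hybrids with SF279 (edgeR adjusted p = 8.26e-32). Its other hybrids split by the first-named parent, since the hybrids with SF193 had 18.2 to 31.6 CPM. SF279 and SF193 were also the only lines with a median above 0, at 25.1 and 24.1 CPM, although 1 library of SF009 had 13.7 CPM. HanXRQChr11g0343721 (129893874 to 129898574, plus strand) had 3.41 to 5.41 CPM in the hybrids with SF279, SF317 and SF326 and at most 0.0217 CPM in the hybrids with SF342 (adjusted p = 1.54e-29). SF342 had 0 CPM in its 4 libraries. SF092 had a median of 2.17 CPM, yet the hybrid SF092_SF342 was at 0.

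Differences between parents in the hybrids were compared with the differences between the same lines, over 6 pairs of first-named and 6 pairs of second-named parents. The hybrid libraries and the line libraries are separate plants, and whether the sampled plants of a line carry the genotype of the parent its hybrids are named for was not tested. Between 292 genes (SF279 and SF326) and 550 genes (SF279 and SF317) differed between the hybrid means of a pair (19.1%, against 22.3% of all genes tested, to 36.0%, against 33.7%). Of the genes called between hybrids, 44.9% to 71.8% were also called between the lines, and of those called between lines, 39.9% to 70.6% were called between hybrids. The sign was the same for 129 to 351 of the shared calls per pair, out of 136 to 353. The hybrid difference was smaller, with a median ratio to the line difference of 0.16 to 0.39 over the genes called between lines. The design favours a ratio below 1, because the compared hybrids share the same 4 other parents. The choice of genes by their difference between lines favours it too. The lowest ratios, 0.16, 0.20 and 0.20, were those of the 3 pairs with SF326. Over 17 windows, the share called in hybrids and in lines had a correlation of 0.89 for SF279 and SF342 and of 0.27 for SF009 and SF193. Window 10 was lowest in 6 of the 12 pairs, with 4.84% for SF326 and SF342.

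The combination effect with the smallest p was in HanXRQChr11g0328081 (31656367 to 31663593, minus strand; edgeR adjusted p = 3.98e-32). Line SF109 had a median of 0.323 CPM, and its hybrids with SF317, SF326 and SF342 had means over both water supplies of 0.0795, 0.190 and 0.255 CPM, against 9.12 CPM with SF279. The hybrid with SF326 was this low although SF326 had a median of 24.0 CPM. SF317 and SF342, with medians of 0.00 and 0.337 CPM, had little of it, and all 12 hybrids with SF009, SF092 or SF193 had 10.05 CPM or more.

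Few genes were called for a parent's effect on the drought response, and a gene not called may still have one. The genotype by water interaction was called for 182 genes (11.9%, against 11.9% of all genes tested and 14.1% of genes kept by the same rule elsewhere), and for 28, 31 and 20 without replicate 1, 2 and 3 of every group. Its share was 21.9% in window 17, 19.8% in window 2 and 5.88% in window 6. In windows of at least 50 genes kept by the same rule on other chromosomes, it ran from 2.0% to 25.5%. The first-named parent changed the drought response of 26 genes (1.70%, against 1.46% and 1.65%) and the second-named parent that of 14 (0.917%, against 1.48% and 1.75%). Without replicate 1, 2 and 3 the first-named count was 5, 7 and 9, and without replicate 1 and 3 the second-named count was 6 and 5. HanXRQChr11g0348311 (149309947 to 149312328, plus strand) had the smallest p for the first-named parent (edgeR adjusted p = 1.95e-09). Under stress its hybrids with SF092 had means of 6.71 to 18.2 CPM and its hybrids with SF009 0.380 to 1.15 CPM, against 4.74 to 9.56 CPM and 3.02 to 5.27 CPM under control. The hybrids with SF109 and SF193 fell as those with SF009 did, to 0.0886 to 1.23 CPM under stress, against 3.40 to 6.67 CPM under control. Line SF092 had 13.8 CPM under stress and 9.42 CPM under control. The libraries of SF092 hybrids were uneven under stress, and SF092_SF279 ran from 0.233 to 19.9 CPM.

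HanXRQChr11g0345811 (139396302 to 139401837, plus strand) had the smallest p both for the genotype by water interaction (edgeR adjusted p = 2.88e-07) and for the second-named parent (adjusted p = 1.25e-06). Its hybrids with SF342 had 45.8 to 118 CPM under stress and 27.0 to 61.6 CPM under control. Those with SF326 went the other way in 3 of 4 crosses: 29.7, 23.4 and 15.0 CPM under stress, against 58.8, 39.7 and 31.4 CPM under control, with SF009, SF092 and SF109. The fourth, SF193_SF326, had 76.7 CPM under stress and 63.3 CPM under control. Line SF109 had at most 1.20 CPM of it in any library.

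The hybrids gave a count of how a gene that only one parent expressed came through. Over the 16 hybrids, on/off genes with both parents on were on in 1002 of 1061 cases (94.4%) and off in 12. Of these 12, 11 were in SF092_SF326, among its 91 such genes, and 1 in SF009_SF326. With the first-named parent alone on, the hybrid was on in 561 of 687 cases (81.7%), and with the second-named parent alone on, in 302 of 369 (81.8%). With both parents off, the hybrid was off in 265 of 372 cases (71.2%) and on in 36 (9.68%), and the rest lay between. Without the doubted libraries 11 cases with both parents on were off and 38 with both parents off were on. Cases share genes and parents and are not independent.

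Here a parent stands for the sampled plants of the line of that name. Whether those plants carry the genotype of the parents used in the crosses was not tested. This limits the ratios and counts below, first those with SF009, SF092 and SF326. Genes of these parents were most often near 0 in their hybrids, for SF009 under stress mainly in SF009_SF279. The level in the hybrid, divided by that in the parent that was on, had a median per hybrid that averaged 0.582 ± 0.108 under stress and 0.623 ± 0.201 under control (SD over 16 hybrids, 30 to 84 genes each under stress and 26 to 84 under control). The lowest medians were 0.507 in SF109_SF326 under stress and 0.466 in SF092_SF317 under control. SF092_SF326 stood apart at 0.974 under stress and 1.32 under control, over 30 and 26 genes that were all on in SF092. The hybrids of SF193 ran from 0.563 to 0.615 under stress and from 0.546 to 0.669 under control.

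**Figure D5:**
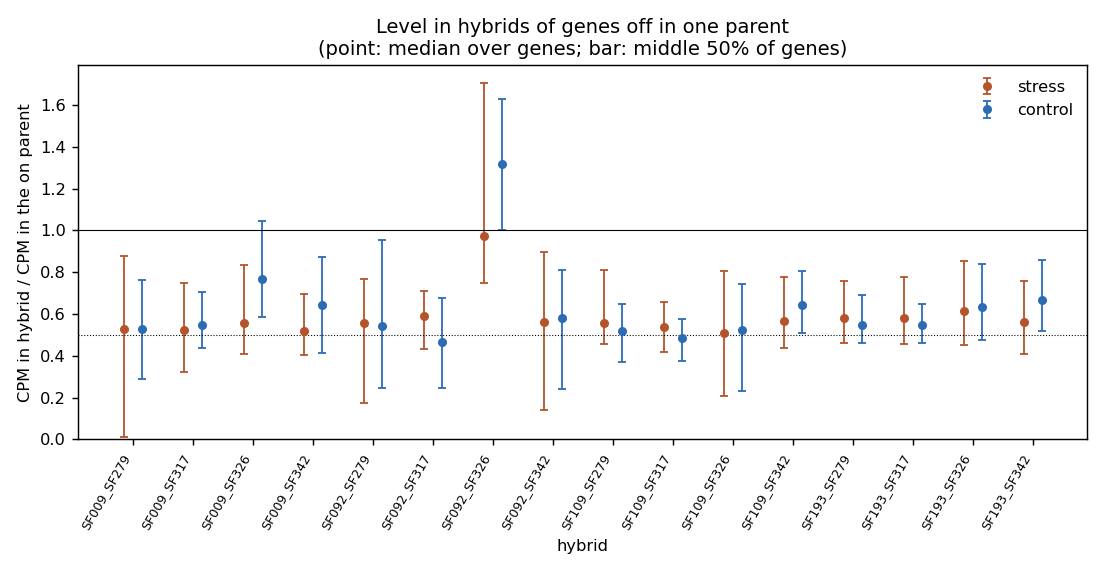
Level in the hybrid divided by the level in the parent that is on (vertical axis, ratio of CPM) for genes off in the other parent, by hybrid (horizontal axis), stress left of control, with the median over genes and the middle 50% of genes. The dotted line stands at 0.5 and the solid line at 1, and SF092_SF326 is the hybrid nearest to or above the solid line.

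In some hybrids a share of the genes of the on parent stayed near 0, under 0.1 of that parent's level. In SF109_SF326 this held for 11 of 32 genes on in SF326 alone under stress (34.4%) and for 12 of 32 under control (37.5%), while 0 of 22 such genes did in SF193_SF326 under either supply. In SF092_SF279 it held for 17 of 53 genes on in SF092 alone under stress and 15 of 47 under control, and in SF092_SF342 for 11 of 39 and 10 of 37. SF092_SF317 had 0 of 46 under stress and 13 of 46 under control. Without the doubted libraries the stress value was 11 of 46. SF009_SF279 had 20 of 54 genes on in SF009 alone under stress and 1 of 51 under control, and 17 of 50 and 19 of 49 without those libraries. Genes on in SF193, SF109, SF279 or SF317 alone were near 0 in 0.00% to 3.158% of cases over both water supplies, and in 0.00% to 3.61% without the doubted libraries. For genes on in SF326 the share was 24.6% under stress and 26.7% under control, and 26.9% and 28.8% without those libraries. For SF092 it was 16.7% under stress and 24.4% under control, and 22.9% and 24.1% without them. For SF009 it was 13.8% under stress and 2.87% under control, and 10.2% and 12.4% without them. SF009_SF279 held 20 of the 26 stress cases of SF009. Without the doubted libraries it held 17 of the 19 stress cases and 19 of the 21 control cases. For SF342 it was 8.49% under stress and 2.17% under control, and 9.73% and 3.03% without them.

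These genes were spread unevenly but not in one block. In SF009_SF279 under stress they made up 4 of 4 genes in window 14, 3 of 4 in window 4 and 3 of 4 in window 1, and 2 of 9 in window 8 and 1 of 10 in window 15. In SF109_SF326 under stress they were 3 of 3 in window 1 and 2 of 2 in window 13. In SF092_SF342 under stress they were 4 of 5 in window 13. Genes off in both parents were on in the hybrid for 12 of 41 in SF109_SF326, 8 of 23 in SF009_SF326, 7 of 37 in SF092_SF326 and 5 of 12 in SF009_SF279, and for 0 to 2 in each of the other 12 hybrids. Without the doubted libraries SF009_SF279 had 5 of 17. SF109_SF326 and SF009_SF279 thus showed both kinds, as did SF009_SF326, where 4 of 7 genes on in SF326 alone were near 0 under stress, SF092_SF326 had no gene of SF092 near 0, and SF092_SF279, SF092_SF342 and SF092_SF317 had none on of 20, 14 and 21 off in both parents. What these crosses share with the doubted libraries, other than the parent names SF009, SF092 and SF326, was not tested.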

How the data were processed

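Leaf RNA of 72 stressed and 70 control sunflower plants was sequenced as strand-oriented pairs of reads, per the labels' protocols. The authors deposited raw counts per gene, and these counts are the base of every value. The authors' second deposited table holds values in CPM of the genes they kept, with columns that sum to 999988 to 1000065, and was used for its list of 30831 genes and 140 libraries, in which 1509 of the chromosome 11 genes are present. Per the submitters' processing notes, R 3.3.3 and edgeR 3.16.5 were used. The sources used here give no aligner. Positions are those of the deposited table.

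Counts were fitted with edgeR 4.0.16 in R 4.3.3: filterByExpr over the 48 groups of genotype and water supply left 36989 genes, libraries were scaled by TMM, and quasi-likelihood F-tests were run on contrasts of a single fit. P-values were adjusted over all genes tested by Benjamini and Hochberg, with a threshold of 0.05. Standard errors are the absolute log2 change divided by the root of F. CPM are per library total. Intervals for shares are exact binomial intervals at 95% and cover counting error only.

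The members and gene lists were chosen with earlier results of these data known. The comparisons of parents within hybrids, the counts of hybrid states and of genes near 0, and the fits without lines SF009 and SF092 were chosen after seeing the data. Named genes were those with the largest change, span or smallest p of each comparison, at most 2 a direction, whose mean log2 CPM was 1 or more. The drought average is a description, since its values chose the members. Data were simulated from 1 mean per gene, pooled over all libraries, with 200 changed genes for each of 3 comparisons. On these the fit over 36989 genes recovered 95.5% of 2-fold changes for the drought average. It recovered 84.5% of 4-fold changes between lines and 85.5% of 2-fold changes for the first-named parent. The simulated data held no other difference between groups, and genes of 1 level had the same spread, so these rates need not hold for the real genes. No identifier matched the 83308 entries of the RefSeq gene table, so no gene name, function or sequence is given. Alternatives were other scalings, filters, libraries, replicates left out, the replicate block, limma 3.58.1 and DESeq2 1.42.0.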

Additional observations from a re-analysis of the deposited data

Results flagged for a closer look

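Among the 8 lines, SF326 had the highest median drought change over the chromosome 11 genes, a log2 of 0.11, and stood away from the other lines, which had medians of -0.01 to 0.04. The library labelled SF326 stress 3, which shared 99.3% of its on/off calls with SF092_SF317, is among its stress libraries, and its part in this value was not tested. SF009 stood apart from the other lines in the number of genes with a fall of over 2-fold, 275 against 115 to 159. SF009 also holds a doubted library, whose part in this count was not tested.

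Among the 4 hybrids with SF092, SF092_SF326 stood apart in the median level relative to the parent that was on, at 0.9739 under stress and 1.316 under control. Among the 4 hybrids with SF342, SF009_SF342 was the separate one under stress, at 0.5174, while the other 3 lay at 0.5621 to 0.5686. In 22 groups of values examined this way, chance sets a sample apart in about 1 of 20.

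The drought response differed between hybrids and lines in 524 genes, and between genotypes in 182. The named genes with the largest differences between hybrids and lines were HanXRQChr11g0325791 at 2.23, HanXRQChr11g0322451 at 1.57, HanXRQChr11g0332361 at -3.68 and HanXRQChr11g0348481 at -2.66, as log2 of the hybrids' response minus the lines' response.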

How the results depend on the processing

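Of 179 alternative values of the comparisons and windows, 164 stayed within the limits used (1.5 times for a count). Direction was checked only for window medians of the drought change, so a count within its limit can hold another mix of directions. For 22 results of named genes, 278 of 284 alternatives kept the call, 6 lost it and 0 reversed. Leaving out 1 replicate number of every group gave 312 to 405 genes for the response of hybrids against lines (524 with all libraries), 20 to 31 for the genotype by water interaction (182), 5 to 9 for the first-named parent by water (26) and 5 to 12 for the second-named parent by water (14). These fits hold fewer libraries. Windows of 20 Mb, each holding more genes, moved the lowest share of the first-named parent effect to 42.97% (28.07% in 10 Mb windows) and the extreme medians of the drought log2 change to -0.0476 and 0.101 (-0.22 and 0.28). With library totals in place of TMM those medians were -0.0101 and 0.497; that scaling moved the median of all genes to 0.23. The 6 lost calls were HanXRQChr11g0340431 without replicate 3 (4.21), HanXRQChr11g0322451 without replicate 2 (1.54), and HanXRQChr11g0332361 without replicate 1 (-3.40), without replicate 3 (-3.12), without the doubted libraries (-3.40) and with the authors' libraries (-3.46); the cause was not tested. DESeq2 called 1206 genes for the drought average, 841 for hybrids against lines and 580 for their responses. With the replicate number as a block, 1125 genes were called for the drought average, 1182 between lines, 732 for hybrids against lines, 516 for their responses, 174 for the interaction, 812, 760 and 230 for the first-named, second-named and combination effects, and 26 and 15 for the parents by water. The numbers were not taken as pairing the plants, because of 69 pairs of a control and a stress plant with 1 genotype and number 38, not all, had a correlation of deviations over 0.1 (median 0.12, range -0.18 to 0.39). Over plants of all genotypes, another comparison, the mean was 0.00319 for the same number and -0.00152 for other numbers. Leaving out line SF342 was not run for the effects among hybrids, which use no line library. Depth limits genes near 1 CPM most, since the smallest library holds 2796719 counts.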
